A study of Mus musculus with 14 samples.

Results

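The change between day 4 and day 8 was followed in mouse embryonic fibroblasts that carried retroviruses for Sox2, Klf4 and Oct4 (SKO; Oct4 is the product of Pou5f1). It rests on 4 of the series' 14 arrays: SKO cells without vitamin C on days 4 and 8, and SKO cells kept with vitamin C at 50 µg/ml on the same days. Each day 8 array was set against the day 4 array of its own arm, and a gene belonged to the comparison when it moved the same way in both arms. Of 19938 genes measured, 4792 (24.0%) were higher on day 8 in both arms, 6419 (32.2%) were lower in both, and 8727 moved in opposite directions or not at all in one of them. These counts come from the choice of members and carry no test.

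The fibroblasts (MEFs) were infected from day 0 in 2 rounds. On day 2 after the second round they were moved to embryonic stem cell medium with serum and LIF, and 1 arm was given vitamin C from then on. All 4 groups thus share the 3 viral factors, the medium and LIF, and differ by day and by vitamin C. A further 8 SKO arrays from days 3, 5, 6 and 10 entered the fit, and a pair of arrays of fibroblasts with a green fluorescent protein virus, lysed on day 3, entered 1 alternative fit only. There was 1 array for each arm and day, no label names separate cultures or animals, and the p-values therefore measure how far the arms' changes departed from each other within 1 time course. The labels name no sorting, so cells that took up few or all of the viruses are taken to have been measured together. In such bulk RNA, fewer cells of a type and less RNA per cell cannot be told apart.

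Fibroblasts that take up these factors are known to lose parts of the fibroblast programme first, to acquire epithelial genes next, and to activate the endogenous pluripotency network last and in few cells. Smooth muscle-type contractile genes, which cultured fibroblasts express when they spread and form stress fibres, are driven by serum response factor (SRF) and its actin-sensitive partners. Interferon-induced genes are driven by STAT and IRF factors, and vitamin C is a cofactor of dioxygenases that act on collagen, DNA and histones.

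The arrays were alike in scale, with medians of the log2 signal from 5.19 to 5.28 over the series. The day 8 array with vitamin C had the widest interquartile range, 3.33, and the day 4 array with vitamin C the narrowest, 3.04. Between these days the third of genes with the lowest signal had a median change of -0.19 with vitamin C and of 0.00 without it, and after quantile normalization these medians were -0.02 and -0.01. Defining fibroblast markers were present on all 4 arrays: Col1a2, Fn1 and Vim stood above at least 99.87% of genes, Thy1 above 95.2%, and S100a4 only above 58.7%. A pattern that alternates between the early days of the series was scored over 500 genes. These genes and their signs were chosen by the alternation over days 3 to 6 of the same arrays, so the scores of those days are no test of it. The score was 0.50 and 0.53 on day 4 (untreated, then vitamin C), 0.20 and 0.53 on day 6, and 0.54 and 0.15 on day 8. It was -0.48 to -0.38 on days 3, 5 and 10. Of the pattern's 500 genes, 15 were among those called below, beside 467 of all 19938 genes. Outside the pattern lay 358 rises and 94 falls.

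The question put to each gene was whether its day 8 level differed from its day 4 level by more than the arms disagreed across the 6 days. With limma, 369 genes rose (1.85% of those tested) and 98 fell (0.492%) at an adjusted p under 0.05. The rises were the larger: 213 of them exceeded 2-fold and 18 exceeded 4-fold, against 17 and 0 of the falls. The median rise was 1.07 on the log2 scale and the median fall -0.80, beside a median change of -0.04 over all genes. Both day 8 arrays lay above both day 4 arrays in 363 of the 369 rises, and below them in 98 of the 98 falls. Over all 19938 genes they lay above in 3595 and below in 4811, and since the calls were made on the same 4 arrays, nothing is read from this separation. The genes nearest the threshold were Tet2 (0.98, adjusted p = 0.0499) and Slc1a6 (-0.72, adjusted p = 0.0499) inside it and Cyb561 (0.84, adjusted p = 0.0507) outside it. These totals depended on single arrays: without the untreated day 4 array 150 rises and 17 falls passed, without the untreated day 8 array 522 and 273, without the day 4 array with vitamin C 65 and 6, and without the day 8 array with vitamin C 64 and 8. Without the arm term they were 133 and 37, and with array weights 154 and 19.

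**Figure D1:**
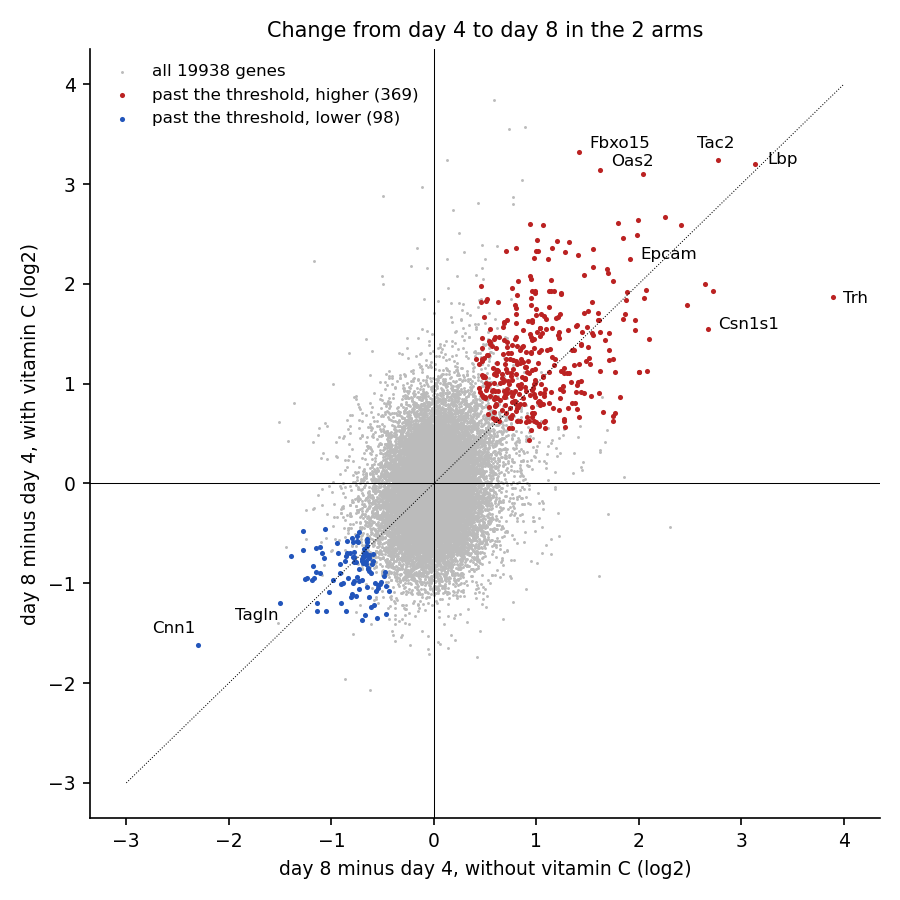
Change from day 4 to day 8 on the log2 scale in the untreated arm (horizontal axis) and in the vitamin C arm (vertical axis), 1 point per gene, with the 369 called rises in red, the 98 called falls in blue, and a dotted line of equal change. All called genes lie in the upper right and the lower left, with Trh to the right of the line and Oas2 and Fbxo15 above it.

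The 12 largest rises are given first. In each pair of levels that follows the untreated array comes first and the vitamin C array second. Lbp, which encodes the lipopolysaccharide-binding protein of plasma, read 6.39 and 7.50 on day 4 and 9.52 and 10.70 on day 8, a rise of 3.17 ± 0.23 (SE) on the log2 scale, or 8.98-fold (limma adjusted p = 0.000233). Days that do not overlap were a condition for the 12, and the change of Lbp was alike in the arms (3.13 and 3.20). Tac2, the precursor of the neuropeptide neurokinin B, went from 3.30 and 3.85 to 6.07 and 7.09, a rise of 3.01 ± 0.28. Trh, the precursor of thyrotropin-releasing hormone, went from 6.62 and 8.17 to 10.51 and 10.04 and rose by 2.88 ± 0.41 (adjusted p = 0.00469). Its change was 3.89 without vitamin C and 1.87 with it, since its day 4 levels differed more between the arms than its day 8 levels. Slc7a3, a transporter of arginine and lysine, stood at 5.80 and 5.74 on day 4 and at 7.84 and 8.85 on day 8.

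Dpp6, an auxiliary subunit of potassium channels, went from 4.46 and 4.67 to 6.87 and 7.26 by its brightest probe, while another probe of the gene changed in the opposite direction. With its probes averaged the change of Dpp6 was 0.70 in place of 2.50. Chrm2, a muscarinic acetylcholine receptor, went from 5.31 and 5.83 to 7.56 and 8.50. Necab1, a neuronal calcium-binding protein, went from 6.26 and 6.88 to 8.91 and 8.88. The changes of Chrm2 and Necab1 were 2.00 to 2.67 log2 units in either arm. Frem2, a protein of the epithelial basement membrane, went from 5.74 and 6.38 to 8.46 and 8.31, and Rnase1, a secreted ribonuclease, from 6.50 and 6.66 to 8.50 and 9.30. Mmp3, the matrix protease stromelysin, went from 3.92 and 3.68 to 5.90 and 6.17, and it was the only one of 19 measured metalloproteinases and inhibitors to pass (4.71-fold, adjusted p = 0.00295). Oas2 and Fbxo15, the remaining members of the 12, are described with their groups below.

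**Figure D2:**
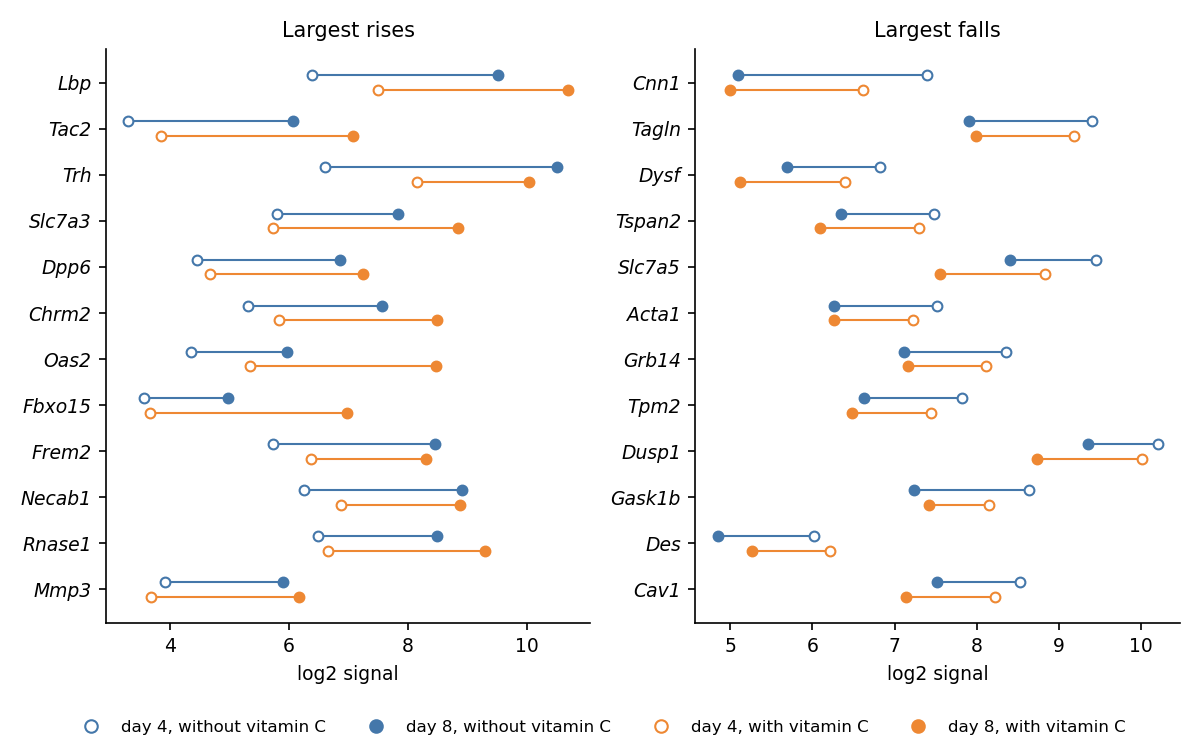
Log2 signal of the 12 genes of largest rise (left) and the 12 of largest fall (right) on the 4 arrays, with day 4 as open and day 8 as filled circles, the untreated arm in blue and the vitamin C arm in orange, and 1 array per circle. The genes were chosen so that both day 8 circles lie on the same side of both day 4 circles, and Lbp has the largest rise and Cnn1 the largest fall.

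The falls were led in size by contractile genes of the smooth muscle type. Of 36 members measured, 12 fell and 0 rose, and 31 were lower in both arms, beside 0.492% of all genes falling and 32.2% lower in both arms. The median change of the list was -0.55, and -0.62 in each arm. Cnn1, the thin-filament protein calponin, read 7.39 and 6.62 on day 4 and 5.09 and 5.00 on day 8, a fall of 1.96 ± 0.25 or 3.9-fold (limma adjusted p = 0.00295). This was the largest fall among all called genes, and its day 8 arrays nearly coincided. Tagln, the actin-binding transgelin, went from 9.40 and 9.18 to 7.90 and 7.99 (adjusted p = 0.00631). Acta1, an alpha-actin, went from 7.52 and 7.23 to 6.26 and 6.26, and Tpm2, a tropomyosin, from 7.82 and 7.44 to 6.63 and 6.48. For these 4 genes the arms differed by less on day 8 than on day 4.

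Des was named by the rule for the largest falls, and the other members given next were singled out after their values were seen. Acta2, the smooth muscle alpha-actin that defines activated fibroblasts, went from 12.10 and 11.74 to 10.92 and 10.91 (adjusted p = 0.0259), and the intermediate filament gene Des from 6.01 and 6.21 to 4.84 and 5.27. Myh11, the smooth muscle myosin heavy chain, fell by 1.02 ± 0.18, and the actin crosslinker gene Flna fell by 0.73 ± 0.15. Myl9, the regulatory light chain, changed by -1.46 ± 0.36 and missed the threshold (adjusted p = 0.0597). The count of falls in this list was 1 without the untreated day 4 array, 9 without the untreated day 8 array, 3 without the day 4 array with vitamin C and 1 without the day 8 array with vitamin C, and it was 5 with array weights. At least 33 of the 36 changes stayed negative in each of these fits, and 34 did so after quantile normalization and after median centring.

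The RefSeq promoter table of mouse assembly GRCm38.p6 held 31 of the 36 contractile genes, as windows of 250 bases before to 50 bases after a start site. An SRF CArG box, searched on both strands, was found in 9 of the 31 (29.0%) and in 254 of the 15614 tested genes with an entry (1.63%). Of the 10 called members with an entry, 3 held it. The 120 bases before the start site are shown for the 2 whose RefSeq start site is also the outer end of the gene, because a box lies close to the start in both. Capitals mark the box, which begins 73 bases before the start of Acta1 (chr8:123894776-123894895, minus strand) and 56 bases before that of Cnn2 (chr10:79988480-79988599, plus strand), another calponin.
Acta1: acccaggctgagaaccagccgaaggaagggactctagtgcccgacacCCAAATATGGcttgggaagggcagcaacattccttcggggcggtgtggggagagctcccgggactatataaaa
Cnn2: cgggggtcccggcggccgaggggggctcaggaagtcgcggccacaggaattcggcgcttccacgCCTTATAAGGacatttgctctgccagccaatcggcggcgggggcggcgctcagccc
Cnn2 itself went from 10.07 and 9.70 to 9.22 and 8.97 (a fall of 0.79 ± 0.18, limma adjusted p = 0.0456). A match describes the letters of the window and not binding.

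The remaining large falls touched the cell surface and signalling. Dysf, dysferlin of the membrane repair machinery, went from 6.82 and 6.39 to 5.69 and 5.12. Cav1, the coat protein of caveolae, went from 8.53 and 8.22 to 7.51 and 7.14, and Tspan2, a tetraspanin, from 7.48 and 7.29 to 6.35 and 6.09. All 3 were lower on day 8 in both arms, by 1.02 to 1.28 log2 units. Grb14, an adaptor that inhibits the insulin receptor, went from 8.35 and 8.11 to 7.11 and 7.16. Dusp1, a phosphatase of MAP kinases, went from 10.20 and 10.01 to 9.35 and 8.74, and Gask1b from 8.63 and 8.15 to 7.24 and 7.42. Ccn1, a matrix signal that is itself induced by SRF and YAP, fell from 10.96 and 10.92 to 10.26 and 9.95 (adjusted p = 0.0246).

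Most interferon-induced genes were higher on day 8 in both arms, by more with vitamin C. Of 42 effectors measured, 9 rose and 0 fell, and 33 were higher in both arms, beside 1.85% and 24.0% of all genes. The median change was 1.03, against -0.04 for all genes. That median was 0.32 in the untreated arm and 1.60 in the vitamin C arm, and the change was larger with vitamin C in 39 of the 42, against 9078 of all 19938 genes. Oas2, which makes the oligoadenylates that activate RNase L, read 4.35 and 5.34 on day 4 and 5.98 and 8.48 on day 8, a rise of 2.38 ± 0.55 (limma adjusted p = 0.0479). Its vitamin C array on day 8 stood 2.5 log2 units above the untreated array of that day. Ifi203, a DNA-sensing protein, went from 5.41 and 5.40 to 6.48 and 8.00, and Parp14, an ADP-ribosyltransferase, from 4.87 and 5.51 to 5.85 and 7.77. Gbp7, a guanylate-binding protein, went from 5.92 and 6.06 to 6.63 and 8.38 (adjusted p = 0.0297). In each of the 9 that rose the change was larger with vitamin C, beside 250 of the 369 rises over all genes. On day 4 the vitamin C array was the higher of the arms in 32 of the 42. On day 8 the vitamin C array was the highest of the 4 arrays in 39. Neither count was made over all genes, whose mean on day 4 was 5.61 untreated and 5.64 with vitamin C.

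The test of this difference between the arms gave no calls. The change with vitamin C minus the change without it passed in 0 of 19938 genes (0.0%; smallest limma adjusted p = 0.392), with 940 positive and 1177 negative differences at an unadjusted p under 0.05. The largest differences were in Insm1, Ifit3b and Cfb. Insm1, a zinc finger factor of endocrine cells, went from 4.87 to 3.70 without vitamin C and from 3.27 to 5.50 with it. Ifit3b, an interferon-induced protein, went from 2.95 to 2.46 without it and from 2.58 to 5.46 with it, a difference of 3.37 ± 0.58. Cfb, complement factor B, went from 4.76 to 5.35 and from 5.11 to 8.94, a difference of 3.25 ± 1.02. The spread of the changes over all genes was also wider with vitamin C (SD 0.49) than without it (0.33).

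The number of interferon calls depended on the arrays in the fit, as did the calls over all genes given above. Without the day 8 array with vitamin C, or without the day 4 array with vitamin C, 0 of the 42 passed, and 0 passed without the arm term. Without the untreated day 4 array 6 passed and without the untreated day 8 array 22, and 26 passed when only the 4 arrays entered the fit. Array weights left 1. In each of these fits at least 38 of the 42 changes were positive. Upstream genes had fewer calls. Of 26 interferon signalling genes, the receptors and factors themselves, 1 rose, the double-stranded RNA receptor gene Tlr3 (from 4.33 and 4.59 to 4.80 and 5.67), and the median change was 0.12. Of 18 genes of MHC class I presentation 1 rose, Erap1, the aminopeptidase that trims peptides (0.87 ± 0.19). The share of all genes that rose was 1.85%. Neither Tlr3 nor Erap1 passed without the untreated day 4 array or without either of the vitamin C arrays.

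The interferon-stimulated response element, searched as GAAANNGAAA on both strands, was in the promoter window of 16 of 28 effectors with an entry (57.1%) and of 607 of all 15614 genes (3.89%). It was present in 2 of the 4 called effectors with an entry and in 4 of 24 signalling genes. Gbp7 is shown as a called member with the element just upstream of its start (chr3:142530216-142530335, plus strand, GRCm38.p6, from RefSeq), in capitals and beginning 53 bases before it. It lies there in the reverse orientation.
Gbp7: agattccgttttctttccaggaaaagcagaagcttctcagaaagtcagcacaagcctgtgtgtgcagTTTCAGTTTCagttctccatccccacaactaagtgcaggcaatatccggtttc

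Complement and acute phase genes, which liver cells and stromal cells secrete, had calls in 1 direction. Of 24 measured, 7 rose and 0 fell, and 15 were higher in both arms, beside 1.85% of all genes rising and 24.0% higher in both arms. The median change was 0.61 (0.44 without and 0.89 with vitamin C). Lbp led them. Fetub, a liver fetuin, went from 5.45 and 6.67 to 7.14 and 8.82, and Kng2, a kininogen, from 4.11 and 5.61 to 5.39 and 7.93. For Kng2 the days overlapped, since its untreated day 8 level was below its day 4 level with vitamin C. Cd55, which protects cells from complement, went from 7.19 and 6.83 to 8.38 and 8.48 (a rise of 1.43 ± 0.22, limma adjusted p = 0.00789). The count was 1 without either of the vitamin C arrays, 4 without the untreated day 4 array, 8 without the untreated day 8 array, and 2 without the arm term.

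**Figure D3:**
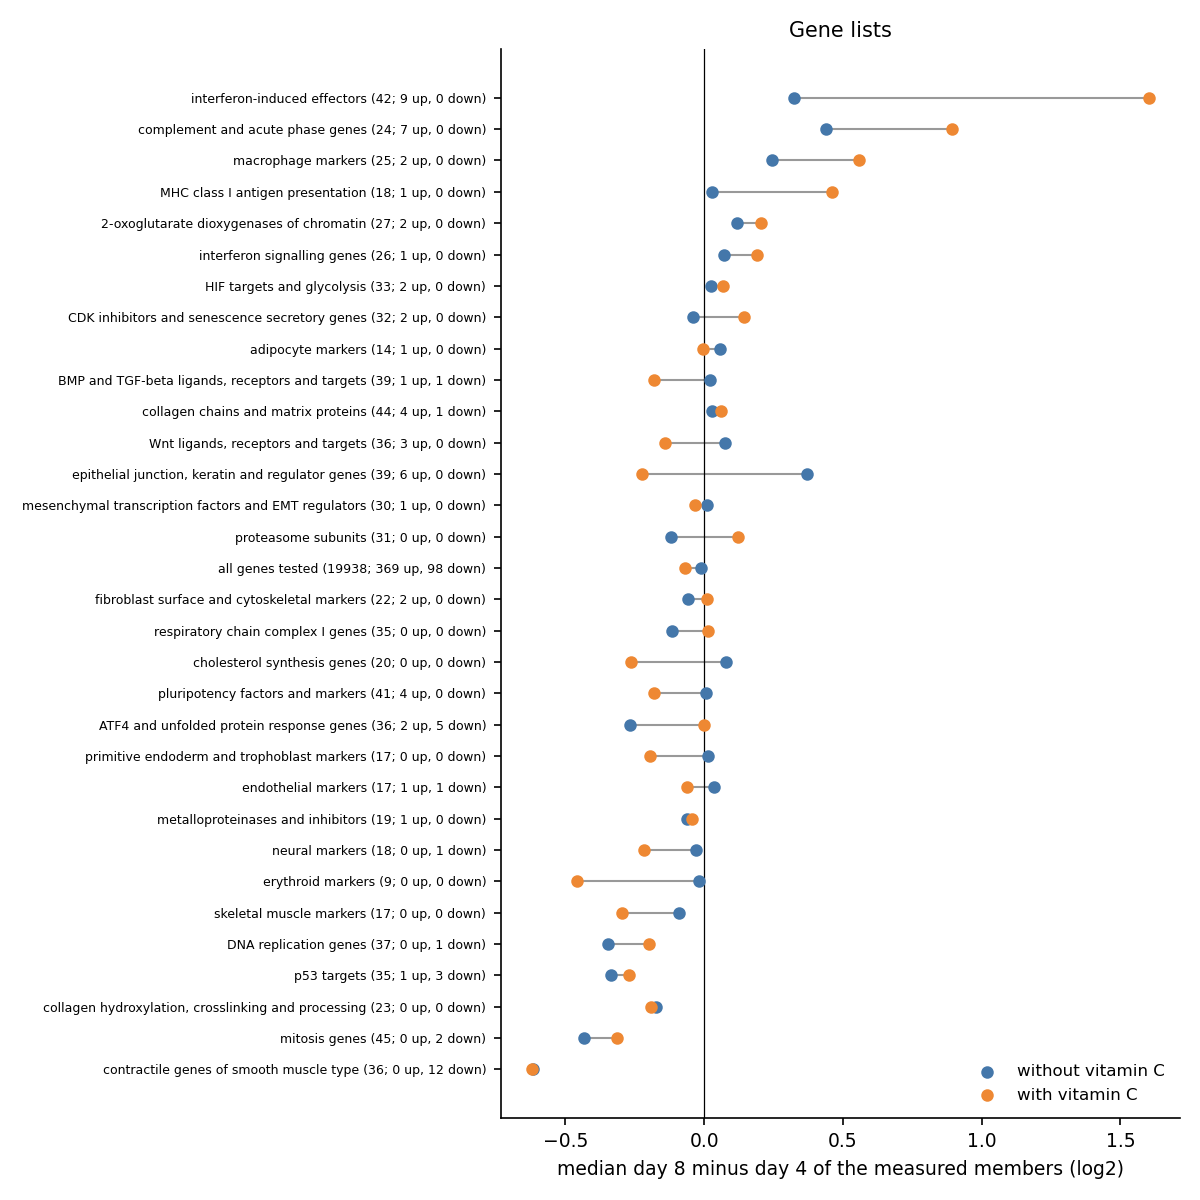
Median change from day 4 to day 8 (log2) of each gene list and of all genes, without vitamin C in blue and with it in orange, with the number of measured members and of called rises and falls in brackets. The contractile list is lowest in both arms, at -0.62, and the interferon-induced list is highest with vitamin C, at 1.60.

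Markers of macrophages, which can be carried into fibroblast cultures, were measured beside these immune lists. Of 25, 2 rose (1.85% of all genes did) and 18 were higher in both arms (24.0% of all genes), with a median change of 0.36. The count of rises was 6 without the untreated day 8 array and 1 without either of the vitamin C arrays. Lyz2, the lysozyme of myeloid cells, went from 4.91 and 4.42 to 5.90 and 6.33, and Laptm5, a lysosomal protein of blood cells, from 6.15 and 6.34 to 7.66 and 7.60. The summed log2 level of the list was 108 and 107 on day 4 and 115 and 120 on day 8. Among the defining markers Ptprc changed by 0.09, Csf1r by 0.34 and Adgre1 by 0.68, all without passing the threshold (adjusted p = 0.819, 0.334 and 0.136). The part of such cells in the immune lists was not tested.

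Of 41 pluripotency genes 4 rose and 0 fell, beside 1.85% of all genes rising, and the median change was -0.09. The factor genes did not pass: Pou5f1 read 12.18 and 12.16 on day 4 and 12.58 and 12.39 on day 8, Sox2 5.23 and 5.43 and then 5.57 and 5.60, and Klf4 9.18 and 9.22 and then 9.28 and 8.88. Their probes' positions in the transcripts are not known here, so viral and endogenous copies were not told apart. Nanog, a core gene of the network with no virus, read 5.35 and 5.89 on day 4 and 5.43 and 6.49 on day 8 (0.34 ± 0.31, limma adjusted p = 0.612). Among the 4, Fbxo15, an early marker driven by Oct4 and Sox2, went from 3.56 and 3.67 to 4.98 and 6.98 (5.17-fold). Tfcp2l1, a factor of naive pluripotency, went from 5.22 and 6.30 to 7.11 and 8.22, a rise of 1.90 ± 0.25. The RNA-binding protein gene L1td1 rose from 5.63 and 6.02 to 6.22 and 7.13, and Nr0b1, a nuclear receptor of stem cells, from 3.81 and 3.63 to 4.46 and 4.46. None of the 4 passed without the day 8 array with vitamin C, none without the arm term, 1 without the day 4 array with vitamin C, and 2 each without the untreated day 4 array, with array weights, or in days 4, 6 and 8 alone.

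Of 39 epithelial genes 6 rose and 0 fell, beside 1.85% of all genes rising. In both arms 14 were higher and 8 lower, beside 24.0% and 32.2% of all genes. The median change was 0.37 without vitamin C and -0.22 with it, against -0.01 and -0.07 for all genes. After quantile normalization the medians of the list were 0.34 and -0.10, against -0.02 and -0.03 for all genes. After median centring they were 0.33 and -0.23, against -0.05 and -0.07. The median with vitamin C was thus negative under each scaling, and its size varied. Epcam, the epithelial adhesion molecule, went from 4.20 and 4.76 to 6.11 and 7.00 (4.22-fold, limma adjusted p = 0.000523). Mpzl2, an adhesion protein of epithelia, went from 4.91 and 5.85 to 6.98 and 7.79, and Spint2, an inhibitor of epithelial serine proteases, from 6.64 and 6.52 to 7.86 and 7.97. Ocln, a tight junction protein, went from 3.70 and 4.16 to 5.08 and 4.97. In all 4 both day 8 arrays were higher than both day 4 arrays, as in 363 of the 369 called rises, and nothing is read from this. Cdh1, E-cadherin, read 5.26 and 5.03 on day 4 and 5.63 and 6.24 on day 8 and missed the threshold (0.79 ± 0.22, adjusted p = 0.0915). The count stayed between 3 and 5 when each of the 4 arrays was left out, and 3 was the count without the day 8 array with vitamin C.

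Genes of mesenchymal identity showed no common fall. Of 30 mesenchymal transcription factors and regulators of the epithelial to mesenchymal transition 1 rose, Foxd1 (from 8.01 and 8.67 to 9.33 and 9.78), and 0 fell. Snai1 changed by -0.04 ± 0.14, Zeb1 by 0.08 ± 0.16, Twist1 by -0.07 ± 0.18 and Snai2 by 0.03 ± 0.18, and the change of Snai2 turned to -0.02 after quantile normalization. Of 22 fibroblast surface and cytoskeletal markers 2 rose, the ectonucleotidase gene Nt5e (from 7.63 and 7.99 to 9.13 and 9.71) and Cd34 (from 8.73 and 8.97 to 9.61 and 9.77). Both lists stand beside 1.85% of all genes rising and 0.492% falling. The surface count was 3 without the untreated day 8 array and 1 without any 1 of the other 3, and Foxd1 did not pass without the day 8 array with vitamin C. Thy1, which marks fibroblasts, read 9.53 and 9.25 on day 4 and 9.78 and 8.94 on day 8 and did not pass (-0.03 ± 0.29). Day 8 levels of Thy1 thus straddled those of day 4.

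Within the extracellular matrix, single genes moved in both directions. Of 44 collagen chains and matrix proteins 4 rose and 1 fell, beside 1.85% and 0.492% of all genes. Eln, elastin, went from 7.24 and 7.30 to 8.36 and 9.55, and the small proteoglycan gene Dcn from 9.15 and 9.20 to 10.23 and 10.87. Lum, another small proteoglycan, went from 6.81 and 7.74 to 7.76 and 9.38, and Col15a1, a basement membrane collagen, from 6.74 and 6.52 to 7.46 and 7.95. The gene that fell was Tnc, a matrix glycoprotein of wounds, which the rule for named genes had not picked. Col1a1 read 12.55 and 12.42 on day 4 and 12.10 and 11.74 on day 8 and missed the threshold (-0.57 ± 0.15, limma adjusted p = 0.0906). None of the 23 genes of collagen hydroxylation, crosslinking and processing passed. In both arms 14 were lower and 4 higher, beside 32.2% and 24.0% of all genes. P4ha1, a prolyl hydroxylase that uses vitamin C, read 8.86 and 7.47 on day 4 and 8.54 and 7.94 on day 8. Its arms differed more from each other than its days did. No matrix gene passed as a rise without 1 or the other of the vitamin C arrays, 2 did without the untreated day 4 array, and 1 did without the arm term or with array weights.

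Most cell cycle genes were lower on day 8 in both arms, few of them past the threshold. Of 45 mitosis genes 2 fell and 0 rose, but 38 were lower and 0 higher in both arms, with a median change of -0.39. Over all genes 0.492% fell, 32.2% were lower in both arms and 24.0% were higher in both. Tpx2, a spindle assembly factor, went from 8.61 and 8.49 to 7.85 and 7.70, and Plk1, a mitotic kinase, from 8.52 and 8.96 to 8.04 and 8.03. Of 37 DNA replication genes 1 fell, the flap endonuclease gene Fen1 (from 6.23 and 6.56 to 5.47 and 5.98), and 32 were lower in both arms against 1 higher, with a median of -0.25. Both medians lay below that of all genes, -0.04, and the directions held after quantile normalization, where 39 and 31 members were lower in both arms. The mitosis count was 7 with an intensity trend and 0 without any 1 of 3 arrays (untreated day 4, day 4 with vitamin C, day 8 with vitamin C), and 3 without the untreated day 8 array. Fen1 did not pass when any 1 of the 4 arrays was left out. The cell cycle gene homology region TTTGAA was in the promoter window of 29 of 37 mitosis genes with an entry (78.4%) and of 17.3% of all genes. The CCAAT box was in the same number of them, against 41.7% of all.

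Inhibitors of the cycle gave single calls. Cdkn1c, the CDK inhibitor p57, rose from 7.98 and 8.38 to 9.10 and 9.50 (1.12 ± 0.14, limma adjusted p = 0.00295). Cdkn2a read 6.33 and 6.42 on day 4 and 6.29 and 6.55 on day 8, and Cdkn2b 7.57 and 7.47 and then 7.26 and 7.12, and neither passed. In the list of 32 CDK inhibitors and senescence secretory genes the other rise was the chemokine gene Ccl8 (from 3.71 and 5.23 to 4.84 and 7.01), whose days overlapped. The list thus held 2 rises, beside 1.85% of all genes rising. Cdkn1c passed without each of the 4 arrays in turn, and Ccl8 only without the untreated day 8 array. Of 35 p53 targets 3 fell and 1 rose, beside 0.492% and 1.85% of all genes. The falls were the apoptosis gene Pmaip1 (from 6.06 and 6.16 to 5.43 and 5.02), Plk2 (from 8.88 and 8.49 to 8.08 and 7.90) and Gtse1 (from 7.06 and 7.14 to 6.32 and 6.56), and the rise was Sesn1, a sestrin (from 6.46 and 6.58 to 7.06 and 7.45). Of the falls 1 was left without the untreated day 8 array, and none without any 1 of the other 3 arrays, without the arm term or with array weights.

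Amino acid genes under the stress factor ATF4 went both ways. Of 36 genes of that response and the unfolded protein response 5 fell and 2 rose, beside 0.492% and 1.85% of all genes. The falls were Slc7a5, a transporter of large neutral amino acids (from 9.45 and 8.84 to 8.40 and 7.56), Psat1 of serine synthesis (from 8.18 and 7.96 to 7.41 and 6.99), and Phgdh, Slc7a1 and Mthfd2. The rises were Slc7a3 and the cystine transporter gene Slc7a11 (from 4.70 and 4.85 to 5.50 and 6.45). The transporters thus moved in both directions, each in both arms. No member passed without the untreated day 4 array or without either vitamin C array.

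Signalling lists had 1 to 3 rises each, beside 1.85% of all genes. Among 39 BMP and TGF-beta genes Chrdl1, a BMP antagonist, rose from 5.13 and 5.24 to 5.98 and 6.24, and Ccn1 fell. Among 36 Wnt genes 3 rose: the antagonist gene Dkk2 (from 8.34 and 8.73 to 9.15 and 9.93), the receptor gene Fzd5 and the antagonist gene Sfrp1 (from 9.14 and 9.25 to 9.76 and 10.18). Of 33 HIF targets and glycolysis genes the aldolase gene Aldoc (2.9-fold) and the prolyl hydroxylase gene Egln3 (1.84-fold) rose. Of 27 chromatin dioxygenases and relatives Tet2 (from 6.06 and 6.46 to 7.13 and 7.33) and Jarid2 (from 6.79 and 6.81 to 7.33 and 7.57) rose. Tet1 changed by 0.72 ± 0.19 and Tet3 by 0.23 ± 0.23 without passing (limma adjusted p = 0.0783 and 0.65). Tet2 stayed called in 6 of 19 alternatives and Jarid2 in 9. Without the untreated day 4 array, without either of the vitamin C arrays or without the arm term, 0 of the Wnt genes and 0 of the dioxygenases passed, and without the untreated day 8 array 2 and 1 did. Without day 3, day 5 or day 6 no dioxygenase passed. The BMP and TGF-beta calls were lost without any 1 of the arrays other than untreated day 8, without which 2 rose and 2 fell. The HIF list had 0 rises without the day 4 array with vitamin C, and 1 without the untreated day 4 array or the day 8 array with vitamin C.

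Lists of other cell types had single calls or none, beside 1.85% of all genes rising and 0.492% falling. Tek, an endothelial receptor, rose from 7.24 and 7.73 to 8.22 and 9.09, and Flt4, a lymphatic receptor, fell from 5.46 and 5.13 to 4.62 and 4.18. Nes, nestin of neural progenitors, fell from 8.36 and 8.11 to 7.66 and 6.74, and Lpl, the lipase of adipocytes, rose from 6.05 and 5.80 to 7.00 and 7.85. Without either of the vitamin C arrays none of these 4 genes passed, whereas Tek and Lpl passed without either of the untreated arrays. No member passed in the lists of erythroid, skeletal muscle, and primitive endoderm and trophoblast markers, nor in those of cholesterol synthesis, respiratory chain complex I and the proteasome.

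Day 6 lay between the days compared. Over the 369 rises the day 6 mean was between the means of days 4 and 8 in 360, and over the 98 falls in 92. The genes were picked for a large difference between those means, which favours such counts, so nothing is read from them. Tested against day 4, 78 genes were higher on day 6 (0.391%) and 11 lower (0.0552%), a comparison that shares the day 4 arrays. Cnn1, for example, read 5.28 and 5.75 on day 6, close to its day 8 levels, whereas Epcam read 5.39 and 5.43, between its levels of the other days. Day 8 tested against day 6 gave 0 calls, with 337 positive and 276 negative changes at an unadjusted p under 0.05. By day 10 the mean had gone past that of day 8 in 251 of the 369 rises and 64 of the 98 falls, and in 12 of the 12 contractile genes that fell. These day 10 counts were not made over all genes.

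**Figure D4:**
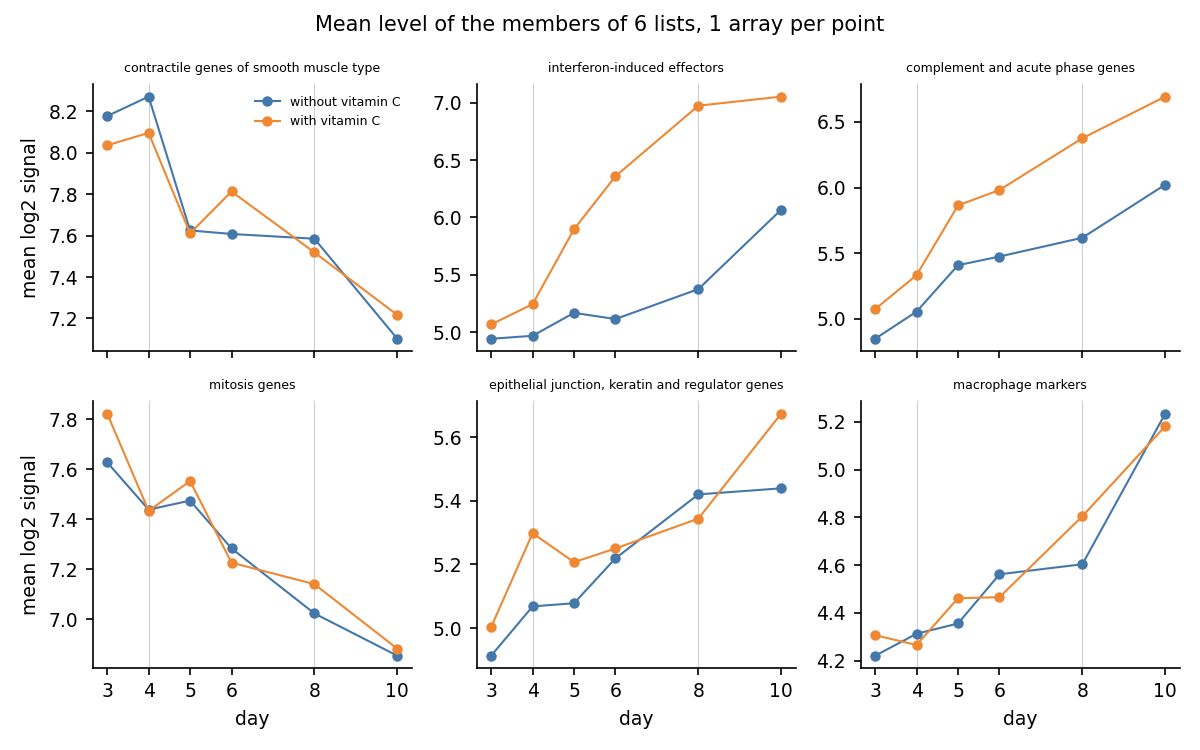
Mean log2 signal of the members of 6 lists (vertical axes, each with its own scale) on each day (horizontal axis), without vitamin C in blue and with it in orange, 1 array per point, and grey lines at days 4 and 8. The contractile and mitosis means are lower on day 8 than on day 4 in both arms, and the interferon-induced mean with vitamin C goes from 5.24 on day 4 to 6.97 on day 8, against 4.97 and 5.38 without it.

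Day 10 against day 5 is a later comparison of the same course that shares no array with day 8 against day 4, though both come from the same fit and variance estimates. It gave 242 rises (1.21%) and 103 falls (0.517%). Of the day 8 rises 141 were also called there, which is 38.2% of the day 8 list and 58.3% of the day 10 list. Of the falls 25 were shared, 25.5% and 24.3% of the lists, and 0 genes were called in opposite directions. The direction was the same in 361 of the 369 rises and 85 of the 98 falls. The share of all genes with the same direction was not counted. Tac2 rose by 3.27 from day 5 to day 10, Epcam by 2.08 and Lyz2 by 2.31, while Cnn1 fell by 1.36 (limma adjusted p = 0.000638, 0.00104, 0.00301 and 0.0224). Among mitosis genes 18 of 45 fell in the later pair of days against 2 in the earlier one.

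The difference between the pairs of days was tested for every gene, and 0 passed (0.0%; smallest limma adjusted p = 0.246), with 533 positive and 702 negative differences at an unadjusted p under 0.05. The largest differences were in Csn1s1, Cd36 and Tac1. Csn1s1, a milk casein gene, rose from 5.90 and 4.97 on day 4 to 8.57 and 6.51 on day 8, and its change from day 5 to day 10 was 0.20. Cd36, a fatty acid transporter, changed by 0.77 and -1.02 in the earlier and later pairs, and Tac1, the precursor of substance P, by 0.98 and -0.79. Dusp1 changed by -1.06 in the earlier pair and by 0.14 in the later one, and Ccn1 by -0.83 and 0.34.

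**Figure D5:**
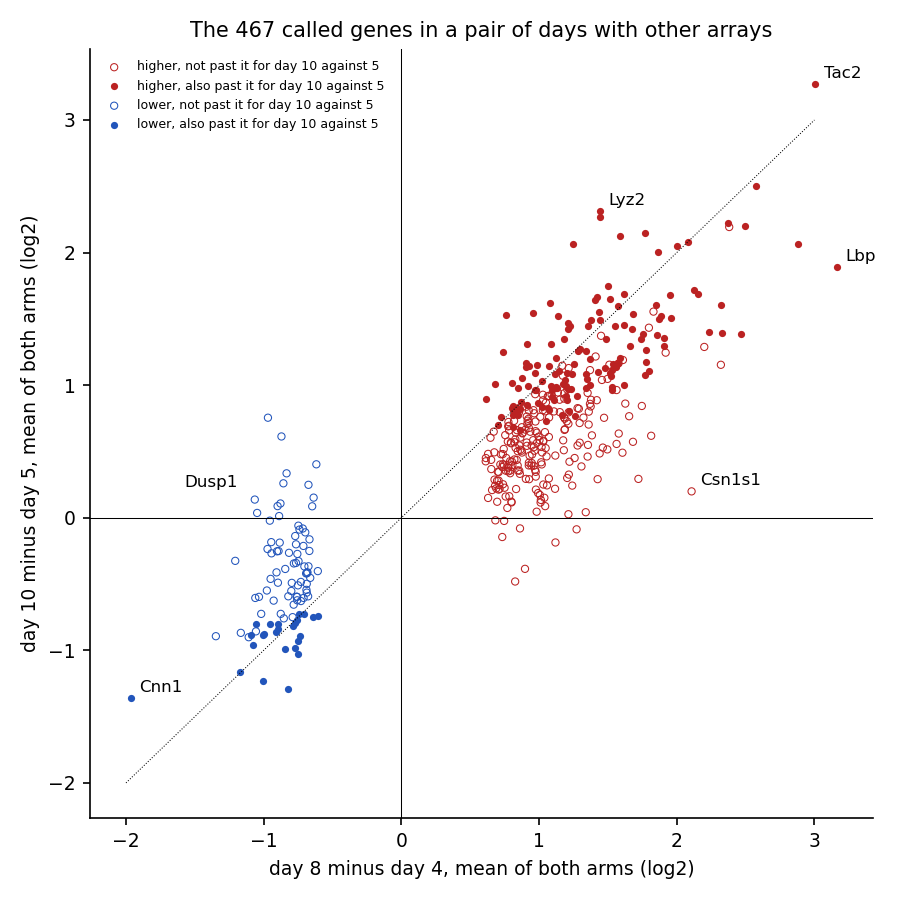
Change from day 4 to day 8 (horizontal axis) and from day 5 to day 10 (vertical axis) on the log2 scale, mean of both arms, for the 467 called genes, with rises in red, falls in blue and filled points for genes also called from day 5 to day 10, and a dotted line of equal change. Most points lie in the upper right and the lower left, where the directions agree, and Csn1s1 lies close to the horizontal axis.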

How the data were processed

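The 14 Affymetrix arrays each hold total RNA of MEFs. The authors deposited a value per probe, made with RMA and Partek per the submitters' processing notes, with no version stated in the labels. The range of the deposited values, 0.72 to 14.1, was read as a log2 scale. Of 28853 probes, 21789 had 1 gene symbol in the platform annotation, 1621 several and 5443 none listed. Each gene was represented by its probe of highest mean. This left 19938 genes, of which 999 had several probes and 19919 were found in the RefSeq table of GRCm38.p6.

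The model was fitted with limma 3.58.1 (R 4.3.3; lmFit and eBayes) to the 12 SKO arrays, with day as a factor and the vitamin C arm, which the labels give, as the block (5 residual degrees of freedom, 4 for the arm difference), p-values adjusted after Benjamini and Hochberg over the whole table, and a threshold of 0.05. The fit was tested on simulated data. Members and the 31 lists (887 of 941 entries measured) were chosen with earlier results of these data known. Named genes were the 12 largest rises and falls with arrays that did not overlap, up to 4 called members of each list (the 2 largest changes where none was called), a set of reprogramming genes, and the 3 largest differences of each further test. Genes without a proper name, receptor and histone clusters and small RNAs entered counts only. Alternatives were other sets of arrays, leaving out each array, no arm block, median centring, quantile normalization, dropping the 6646 genes of lowest signal, an intensity trend, robust variances, weights for arrays, averaged probes and a minimum of 1.5-fold. Counts within lists under these settings were added after the data were seen. Figures used matplotlib 3.10.9.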

Additional observations from a re-analysis of the deposited data

Results flagged for a closer look

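For 11 named genes the change from day 4 to day 8 went in opposite directions in the arms, and the arm difference of each missed the threshold (limma adjusted p of 0.392 or more over all genes). The change with vitamin C minus the change without it was 3.40 in Insm1, 3.37 in Ifit3b, 0.83 in Psma5, 0.80 in Snai2, 0.79 in P4ha1, 0.75 in Ndufv3, 0.55 in Zeb1 and 0.17 in Cdkn2a. It was -0.94 in Myc, -0.57 in Thy1 and -0.45 in Klf4. In some of these genes 1 arm barely moved: the untreated change was -0.0009 in Ndufv3, -0.031 in Psma5, -0.04 in Cdkn2a and 0.067 in Myc. Over all 19938 genes 8727 moved in opposite directions or not at all in 1 arm. Myc read 8.56 and 8.67 on day 4 (untreated, then vitamin C) and 8.62 and 7.80 on day 8. Each group held 1 array, so no array could be set against others of its own group.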

How the results depend on the processing

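The calls turned on the 4 arrays compared more than on the scaling. Leaving out each of them gave 64 to 522 rises and 6 to 273 falls, with the lone array of a day assumed to vary like the rest. Without the replicate block (no vitamin C arm term) 133 and 37 passed, and with array weights 154 and 19. Falls alone moved by over 1.5 times with only days 4, 6 and 8 (35), without day 5 (48), without the third of genes of lowest signal (178) and with an intensity trend (175). The cause of these shifts was not tested. Under these 4 settings the rises ran from 262 to 502. The other settings, quantile normalization and median centring among them, gave 285 to 413 rises and 74 to 115 falls. The arm difference and the difference from day 10 minus day 5 gave 0 calls under each setting run. Of the 73 named genes that were called, 0 reversed under any setting and between 18 and 73 stayed called. Among named genes that were not called, leaving out 1 array gave changes of both signs: -0.12 to 0.21 in Cdkn2a, -0.77 to 1.84 in Insm1, -0.30 to 0.072 in Klf4, -0.22 to 0.37 in P4ha1, -0.024 to 0.79 in Psma5, -0.24 to 0.29 in Snai2, -0.077 to 0.54 in Tet3, -0.49 to 0.43 in Thy1 and -0.14 to 0.29 in Zeb1. Quantile normalization turned Snai2 to -0.021. The arrays carry no measure of background here, so changes of weak genes may be understated, and the number of arrays limits the precision.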

Other observations

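Besides Tac2 and Trh, 2 further precursor genes of neuropeptides rose. They were picked after their values were seen, and other members of that class were not counted. Npy, the precursor of neuropeptide Y, went from 4.44 and 5.47 on day 4 (untreated, then vitamin C) to 6.91 and 7.25 on day 8 (4.37-fold, limma adjusted p = 0.000523). Penk, the precursor of the enkephalins, went from 7.40 and 8.04 to 9.41 and 9.16 (2.96-fold). Npy also rose from day 5 to day 10, by 1.72, whereas Penk did not pass there (0.56).

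The 3 aldehyde dehydrogenase genes given next were also picked after their values were seen, and the rest of the family was not counted. Aldh1a1, which makes retinoic acid, went from 6.96 and 6.97 to 7.85 and 8.13, and Aldh1a3, which does the same, from 4.90 and 5.24 to 5.84 and 6.12. Aldh3a1, a detoxifying enzyme, went from 9.34 and 9.93 to 10.76 and 10.60. Their limma adjusted p-values were 0.00886, 0.0231 and 0.0372.

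Fetub, Kng2 and Kng1, which rose, lie close together on chromosome 16 of GRCm38.p6, in the order Ahsg, Fetub, Hrg, Kng2, Kng1 among protein-coding genes. Kng1 rose by 0.86 ± 0.18 (limma adjusted p = 0.0316). Ahsg changed by 0.83 (adjusted p = 0.14) and Hrg by -0.34 (adjusted p = 0.32), so the genes of the stretch did not all pass.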
